A study of Mus musculus with 12 samples.

Results

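The respiratory chain genes encoded in the nucleus were followed in mouse B cell acute lymphoblastic leukaemia (B-ALL) cells exposed to LY2090314, a small-molecule inhibitor of the kinase GSK3β. Members were taken by gene symbol: all genes whose symbol starts with Ndufa, Ndufb, Ndufc, Ndufs, Ndufv, Uqcr, Cox4, Cox5, Cox6, Cox7, Cox8 or Atp5, and *Sdha*, *Sdhb*, *Sdhc* and *Sdhd*, without symbols marked as pseudogenes by -ps. Of the 41444 genes in the table, 97 met the symbol rule, and 85 of these had a mean rlog value of at least 3 over the 6 libraries compared. The rlog value is a log2 expression level that the authors computed from read counts, with shrinkage of genes that have few reads. The 85 members comprised 35 subunits of complex I, 4 of complex II, 8 of complex III, 11 of complex IV and 16 of complex V, along with 11 genes that share the names but are not subunits. Those 11 were 8 complex I assembly factors (Ndufaf genes), the supercomplex factor *Cox7a2l*, *Atp5s* and *Ndufb4c*, a gene annotated as a processed pseudogene of *Ndufb4*.

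The cells were bone marrow pre-B cells of *Ctnnb1* fl/fl mice transformed with BCR-ABL1, so that all groups share the oncogene and the floxed β-catenin gene. They carried an ERT2 control vector, which holds no Cre recombinase, or Cre-ERT2, with 3 samples in each of 4 groups. The control group here was ERT2 cells given 1 µM 4-OHT for 2 days. The treated group was ERT2 cells given 4-OHT and, per the study's design text, 40 nM LY2090314 for 1 day; the study's figure legend gives a shorter exposure. The control libraries are called control 1, 2 and 3, and the treated libraries 14A, 14B and 15, after their column names. The study describes its replicates as biological, from separate mice, but libraries 14A and 14B share a number, and whether they came from separate mice or cultures is not given in the sources used here. If they did not, the p-values measure a spread that is in part technical. The columns with Cre in their names could not be tied to single groups and were not used here, so whether a difference requires β-catenin was not tested.

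The respiratory chain passes electrons from NADH, through complex I, or from succinate, through complex II, to coenzyme Q, then through complex III and cytochrome c to complex IV, which reduces oxygen. Complexes I, III and IV pump protons across the inner mitochondrial membrane, and complex V, the ATP synthase, uses the returning protons to make ATP. Complexes I, III, IV and V are assembled from subunits encoded in the nucleus and in mitochondrial DNA, whereas all subunits of complex II are encoded in the nucleus.

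All 9 pre-B markers examined passed the limit on the mean, with means between 6.80 and 14.16, while none of the 5 T cell, 4 erythroid and 4 stromal markers did. Of 5 myeloid markers, *Lyz2* alone passed, at 5.68 to 5.91 in controls and 6.29 to 6.41 in treated libraries. Between the groups, 8 of the 9 pre-B markers were lower and *Lyz2* was higher (limma, adjusted p = 0.0023 for *Lyz2*), and the part of these shifts in the results below was not tested. In bulk RNA, fewer cells of a type and less RNA per cell cannot be told apart. The SD of the pairwise difference between libraries, taken over all genes tested, was 0.185 to 0.253 within groups and 0.581 to 0.622 between them. Depth is unknown, since the table holds no read counts.

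Most respiratory chain genes were lower in the treated libraries, by modest amounts. With limma at an adjusted p under 0.05, 47 of the 85 members (55.3%) fell, 1 rose and 37 did not pass. The response to LY2090314 was broad: over the 11536 genes tested, 50.1% passed in either direction, with 25.3% lower and 24.8% higher. The median log2 difference of the members was -0.26, equal to -16.3% on the linear scale, beside 0.01 for all genes tested. The differences were negative for 75 of the 85 members, and they ran from -0.66 to 0.48. All 3 treated libraries lay below all 3 controls for 48 members and above them for 2, whereas 29.5% of all genes tested lay wholly below and 29.1% wholly above. A log2 difference beyond 0.5 in either direction was found for 12.9% of members and 21.4% of all genes tested. Among members 11 were under -0.5 and none was above 0.5, beside 1109 and 1362 of the 11536 genes tested. Large rises were thus absent, while large falls took no smaller share of the members than of all genes.

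**Figure D1:**
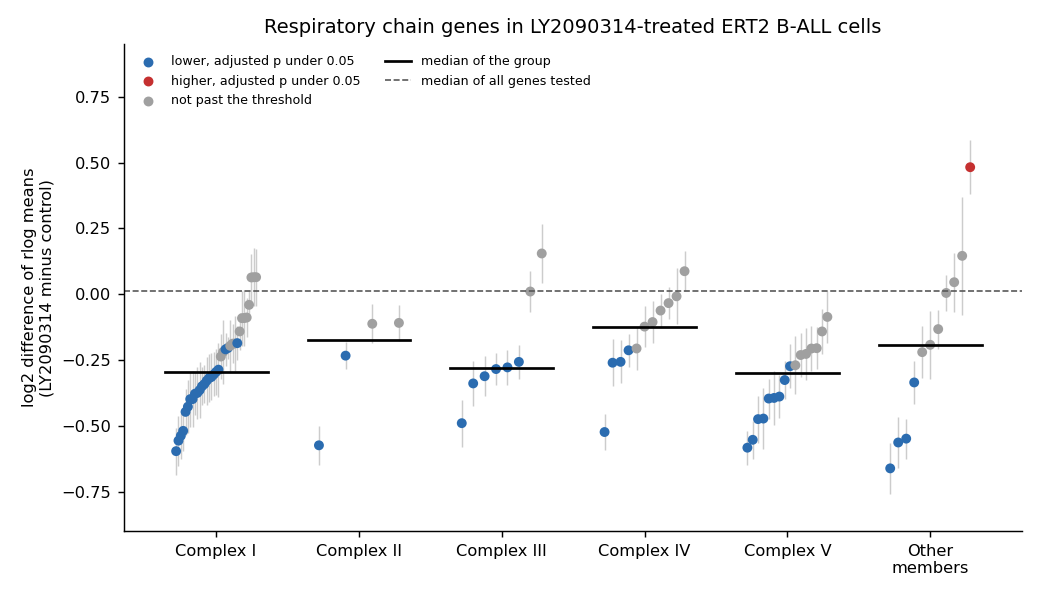
Log2 difference of the rlog means (treated minus control, y axis) for each of the 85 members, grouped by complex (x axis); bars are the standard error from limma, colours the call, black lines the median of each group and the dashed line the median of all genes tested, 0.01. The medians of all 5 complexes lie below the dashed line, between -0.12 for complex IV and -0.30 for complex V, and *Cox7a2l* is the red point at 0.48.

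The members are strongly expressed genes, and strongly expressed genes were called lower more often. Among the 5603 genes with a mean of at least 9, 31.5% were called lower, and of the 68 members in that range 37 were (54.4%). The median log2 difference was -0.03 for those genes and -0.23 for those members. Levels of different members are not compared, because rlog values are not scaled to transcript length.

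**Figure D2:**
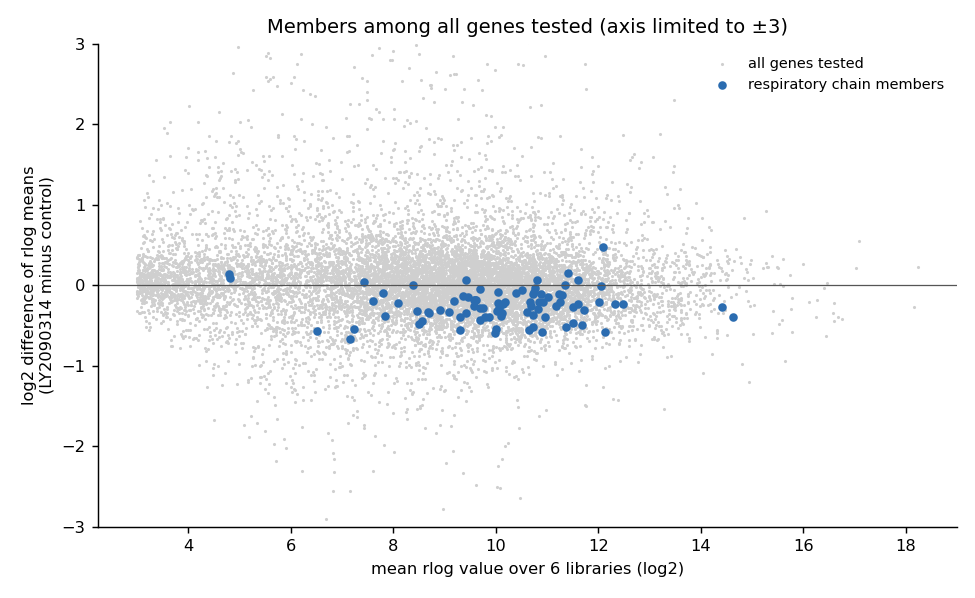
Log2 difference (treated minus control, y axis) against mean rlog value over the 6 libraries (x axis, log2) for the 11536 genes tested, with the 85 members in blue; 43 genes with a difference beyond 3 in either direction lie outside the axis. The members form a narrow band mostly below 0, with means from 4.80 to 14.63.

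The libraries within each group were not equal for these genes. With each gene centred on its own mean, the average over the 85 members was 0.06, 0.08 and 0.23 in control 1, 2 and 3, and -0.18, -0.20 and 0.00 in treated 14A, 14B and 15. Control 3 was the highest control for 76 members (89.4%) and treated 15 the highest treated library for 72 (84.7%), beside 42.3% and 43.0% of all genes tested. In this average treated 15 lay nearer to controls 1 and 2 than to the other treated libraries. The SD over members of its difference from another library leaves this average shift out. That SD was 0.13 and 0.116 from treated 14A and 14B, and 0.244 and 0.25 from controls 1 and 2. It describes the spread of genes around the shift, not which libraries treated 15 lay nearer to. Averaged over subunits, the treated libraries lay wholly below the controls for complexes I, II, III and V. For complex IV they overlapped, since treated 15 averaged 0.05 and control 1 averaged 0.02. Without treated 15, 63 members fell, and without each of the other libraries between 32 and 44 did.

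**Figure D3:**
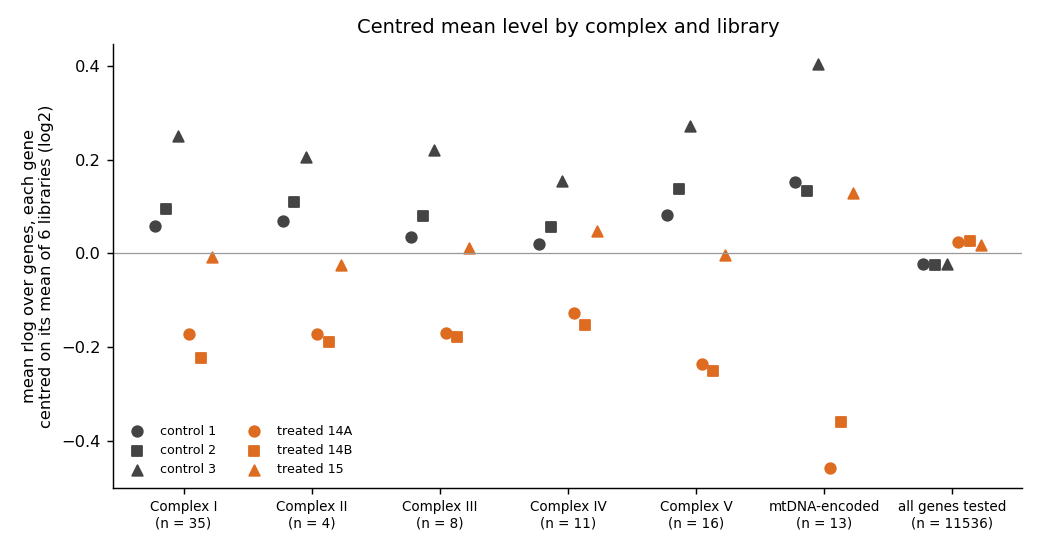
Mean rlog value over the genes of each complex, the mitochondrial DNA-encoded subunits and all genes tested (x axis), each gene centred on its mean of the 6 libraries (y axis, log2), with 1 point per library. Control 3 and treated 15, the triangles, are the highest of their group in every complex and in the mitochondrial DNA-encoded set, and all genes tested stay between -0.03 and 0.03.

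In complex I, the entry point for electrons from NADH, 22 of 35 subunits fell and none rose (median log2 difference -0.29). Thus 62.9% were called lower, beside 25.3% of all genes tested. The NADH arm, which holds the flavin and most iron-sulfur clusters, had 8 of 11 subunits lower (72.7%). The membrane arm had 12 of 19 (63.2%) and the quinone arm 2 of 5 (40.0%). Among these 35 nuclear-encoded subunits the largest fall was in *Ndufab1*, the mitochondrial acyl carrier protein, which also serves in fatty acid and lipoic acid synthesis. Its rlog values were 10.28, 10.15 and 10.45 in the controls and 9.82, 9.62 and 9.65 in the treated libraries. The groups did not overlap, and the log2 difference was -0.60 ± 0.09 (SE, limma adjusted p = 0.00097). *Ndufb6*, an accessory subunit of the membrane arm, stood at 9.42, 9.56 and 9.74 in controls and at 8.95, 8.97 and 9.14 after LY2090314. The difference of -0.56 ± 0.09 (adjusted p = 0.0019) again separated the groups.

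Of the core subunits of complex I, which are shared with the bacterial enzyme, 4 of 7 fell and 6 had negative differences. Thus 57.1% were called lower, beside 25.3% of all genes tested. *Ndufv1*, which binds FMN and takes the electrons from NADH, was at 10.93, 10.93 and 11.11 in controls and at 10.49, 10.34 and 10.58 in treated libraries. It fell by 0.52 on the log2 scale (SE 0.08, adjusted p = 0.00089). *Ndufs1*, an iron-sulfur core subunit, varied little between replicates, with 10.95, 10.97 and 10.90 against 10.72, 10.75 and 10.74. Its fall of 0.20 (log2 difference -0.20 ± 0.04, adjusted p = 0.0057) was small and still left the groups apart. Among the 28 accessory subunits 18 fell (64.3%). The count for complex I depended on single libraries: it was 11 without treated 14B, 13 without control 3, 14 without treated 14A and 27 without treated 15.

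Complex II, succinate dehydrogenase, which also belongs to the tricarboxylic acid cycle, was uneven. *Sdhb*, the iron-sulfur subunit, was at 11.15, 11.15 and 11.30 in controls and at 10.56, 10.56 and 10.76 in treated libraries. The log2 difference of -0.57 ± 0.07 (adjusted p = 0.00042) corresponds to a level changed by -32.8%. *Sdha*, the flavoprotein that oxidizes succinate, read 12.60, 12.55 and 12.63 against 12.30, 12.36 and 12.43, a smaller fall of 0.23 (log2 difference -0.23 ± 0.05, adjusted p = 0.0067) with no overlap. The membrane anchors *Sdhc* and *Sdhd* differed by -0.11 ± 0.07 each (adjusted p = 0.25 and 0.21), with overlapping groups. The differences between these subunits were not themselves tested.

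In complex III, which hands electrons from coenzyme Q to cytochrome c, 6 of 8 subunits fell and none rose (median log2 difference -0.28). Thus 75.0% were called lower, beside 25.3% of all genes tested. *Uqcrc1*, core protein 1, was at 11.85, 11.83 and 12.10 in controls and at 11.35, 11.38 and 11.58 after treatment. Among these 8 subunits it had the largest fall, -0.49 ± 0.09 (adjusted p = 0.0026), and *Uqcrb* followed at -0.34 ± 0.09 (adjusted p = 0.013). *Cyc1*, a subunit of complex III that the symbol rule does not take, fell by more and is given below. Transcripts of *Uqcrb* share 32.4% of their 31-base words with transcripts of other genes, so its reads may be divided between copies. *Uqcrfs1*, the Rieske iron-sulfur protein, was at 11.29, 11.31 and 11.44 in controls and 11.26, 11.30 and 11.52 in treated libraries, a difference of 0.01 ± 0.08 (adjusted p = 0.92). *Uqcrh*, the hinge protein, chosen here after its values were seen as the other member that did not pass, differed by 0.15 ± 0.11 (adjusted p = 0.28).

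Complex IV, cytochrome c oxidase, had the smallest share of lower subunits among the complexes, 4 of 11, with a median log2 difference of -0.12. That share was 36.4%, beside 25.3% of all genes tested. *Cox5a*, a subunit on the matrix side, was at 11.57, 11.58 and 11.74 in controls and at 11.03, 11.07 and 11.21 in treated libraries. Its log2 difference of -0.52 ± 0.07 (adjusted p = 0.00048) was the largest of the complex. *Cox7a2*, the widely expressed form of subunit 7a, fell by less (log2 difference -0.26 ± 0.09, adjusted p = 0.040), and treated 15 at 10.73 overlapped control 1 at 10.72. *Cox6a1*, the widely expressed form of subunit 6a, differed by -0.26 ± 0.08 (adjusted p = 0.032), and its call was lost under several other settings. *Cox4i1*, the main form of subunit 4, did not differ detectably: 12.01, 12.04 and 12.16 in controls and 11.90, 11.96 and 12.32 in treated libraries (difference -0.01 ± 0.11, adjusted p = 0.96). The fourth called subunit was *Cox7b*, at -0.21 ± 0.06 (adjusted p = 0.022), named after its values were seen. The count for complex IV was 1 without control 2, control 3, treated 14A or treated 14B, and 5 without treated 15; *Cox5a* passed in each of these.

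The tissue-specific forms of complex IV subunits were mostly under the limit in every group. The limit excluded *Cox6a2* at a mean of 0.80, *Cox6b2* at 0.98 and *Cox4i2* at -0.98, and *Cox8b*, *Cox8c* and *Cox7b2* were listed at 0 in all 6 libraries. Of the widely expressed partners, *Cox6b1* differed by -0.11 ± 0.08 (adjusted p = 0.31) and *Cox8a* by -0.12 ± 0.08 (adjusted p = 0.23). *Cox7a1*, the heart and muscle form of subunit 7a, and *Atp5s* had the lowest means of all members, 4.82 and 4.80, well above the limit of 3. *Cox7a1* values of 4.79, 4.76 and 4.77 in controls and 4.87, 4.85 and 4.86 in treated libraries did not overlap, yet the difference of 0.09 ± 0.07 did not pass (adjusted p = 0.36). *Ndufa4*, a subunit now counted to complex IV, was just outside, at a mean of 2.94 with 2.86, 3.16 and 2.86 in controls and 2.74, 2.94 and 3.05 in treated libraries. Its paralog *Ndufa4l2* stood at -2.12 in every library. *Ndufa9*, an accessory subunit of complex I, was listed at -0.81 in all 6 libraries, so that complex I is represented without it. The stated annotation release could not be matched to the gene IDs of the table, and whether the low values of *Ndufa4* and *Ndufa9* come from the annotation was not tested, so they are not read as levels in these cells. The gene copies *Ndufs6b* and *Ndufa11b*, at -2.28 each, and *Cox6c2*, at 1.56, all annotated as processed pseudogenes, made up the rest of the 12 below the limit.

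In complex V all 16 subunits had negative differences, and 9 of them passed (median log2 difference -0.30). Thus 56.2% were called lower, beside 25.3% of all genes tested. The 3 genes for subunit c, which forms the proton-driven ring, all fell, and they encode the same mature protein with different import sequences. *Atp5g3* was at 12.34, 12.41 and 12.51 in controls and at 11.77, 11.80 and 11.94 in treated libraries, a log2 difference of -0.58 ± 0.07 (adjusted p = 0.00021) and a change of -33.2% on the linear scale. *Atp5g1* read 10.79, 10.93 and 11.05 against 10.40, 10.30 and 10.42, a difference of -0.55 ± 0.07 (adjusted p = 0.00050). *Atp5g2* read 8.64, 8.68 and 8.88 against 8.32, 8.15 and 8.31, a difference of -0.47 ± 0.09 (adjusted p = 0.0031). For each of the 3 genes all treated libraries lay below all controls. Transcripts of *Atp5g2* share 40.2% of their 31-base words with other genes, so its reads are less certainly its own.

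Of the F1 head, which holds the catalytic sites, 2 of 5 subunits fell, and all 5 had negative differences (median -0.27). Thus 40.0% were called lower, beside 25.3% of all genes tested. *Atp5b*, the catalytic β subunit, was at 14.74, 14.81 and 14.92 in controls and at 14.35, 14.41 and 14.55 in treated libraries (log2 difference -0.39 ± 0.08, adjusted p = 0.0051). *Atp5a1*, the α subunit, fell by 0.27 (log2 difference -0.27 ± 0.08, adjusted p = 0.027), a call lost without control 2, control 3, treated 14A or treated 14B, with adjusted p from 0.066 to 0.10. *Atp5c1*, the γ subunit of the central stalk, differed by -0.21 ± 0.09 with overlapping groups (adjusted p = 0.081), and passed without treated 15 (-0.30, adjusted p = 0.0054). Of the peripheral stalk, which holds the head still, 2 of 4 subunits fell, and of the small membrane subunits 2 of 4. Without treated 15 all 16 subunits of complex V fell. ATP synthase genes outside the symbol rule, named after their values were seen, were *Usmg5* at -0.03 ± 0.07 and the inhibitor *Atpif1* at -0.24 ± 0.09 (adjusted p = 0.73 and 0.064).

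**Figure D4:**
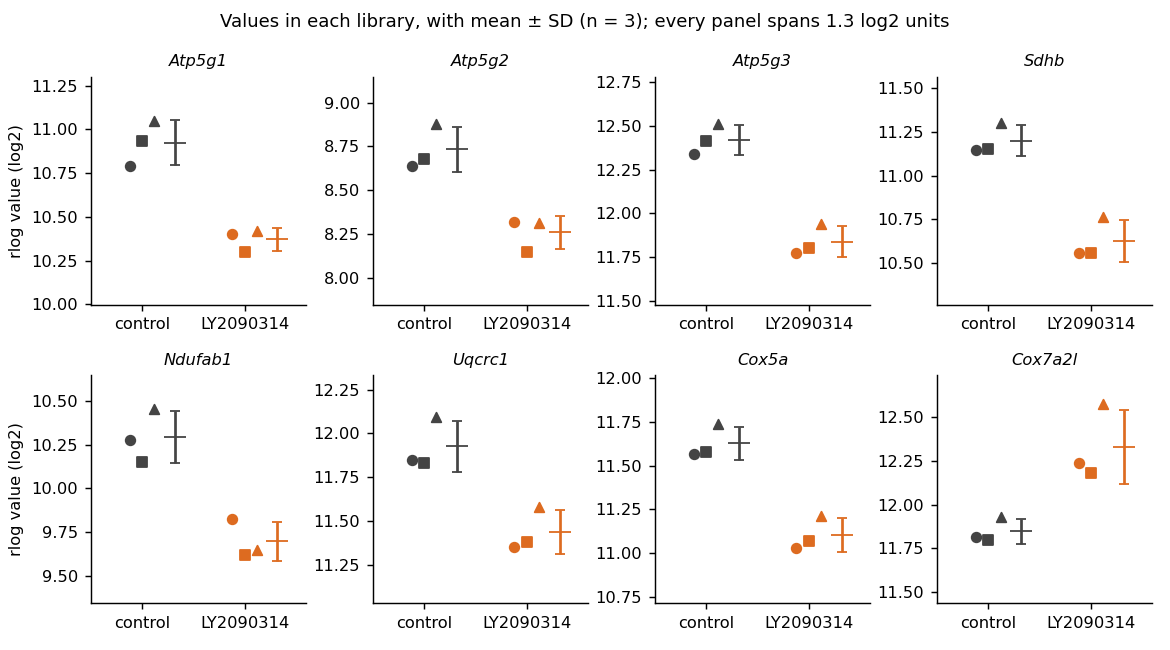
Rlog values (y axis, log2) in each of the 6 libraries for 8 members with large differences, controls in grey and treated libraries in orange, with the mean and SD (n = 3) beside the points. The treated points lie below all control points in 7 panels and above them for *Cox7a2l*.

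Among the members that are not subunits, the exception to the general direction was *Cox7a2l*, also called SCAFI, which joins complexes III and IV into supercomplexes. Its values were 11.81, 11.80 and 11.93 in controls and 12.24, 12.18 and 12.57 in treated libraries. It rose by 0.48 ± 0.10 on the log2 scale (adjusted p = 0.0053), equal to 39.7% on the linear scale, and stayed called higher in each of the 14 other fits. Transcripts of *Cox7a2l* share 16.6% of their 31-base words with transcripts of other genes, so its reads may be divided between genes. Its paralog *Cox7a2* moved the other way, and treated 15 was the highest treated library for both. Of the 8 Ndufaf assembly factors 3 fell (37.5%, beside 25.3% of all genes tested). *Ndufaf5* was at 7.51, 7.32 and 7.62 in controls and at 6.79, 6.82 and 6.85 in treated libraries, the largest fall of any member (-0.66 ± 0.10, adjusted p = 0.00089). *Ndufaf6* differed by -0.56 ± 0.10 (adjusted p = 0.0018) and *Ndufaf2* by -0.55 ± 0.08 (adjusted p = 0.00066). *Ndufb4c* fell by 0.33 (log2 difference -0.33 ± 0.08, adjusted p = 0.011), but 100% of its 31-base words occur in transcripts of other genes, most in *Ndufb4*, so this value cannot be separated from *Ndufb4* itself (-0.37 ± 0.10, adjusted p = 0.014).

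The promoters of the subunit c genes and of *Cox7a2l* are shown because the first 3 genes encode the same protein and fell together, while *Cox7a2l* was the member that rose. The sequences are the 250 bases before the RefSeq start in GRCm38.p6, written 5′ to 3′ on the strand of the gene, all on the minus strand, with matches to the motifs below in capitals. They span chr11:96075632-96075881 for *Atp5g1*, chr15:102671048-102671297 for *Atp5g2*, chr2:73911327-73911576 for *Atp5g3* and chr17:83514334-83514583 for *Cox7a2l*.
Atp5g1: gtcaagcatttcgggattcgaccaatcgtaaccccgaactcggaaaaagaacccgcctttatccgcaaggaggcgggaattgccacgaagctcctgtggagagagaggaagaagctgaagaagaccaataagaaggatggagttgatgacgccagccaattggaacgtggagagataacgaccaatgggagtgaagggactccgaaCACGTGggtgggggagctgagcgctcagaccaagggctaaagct
Atp5g2: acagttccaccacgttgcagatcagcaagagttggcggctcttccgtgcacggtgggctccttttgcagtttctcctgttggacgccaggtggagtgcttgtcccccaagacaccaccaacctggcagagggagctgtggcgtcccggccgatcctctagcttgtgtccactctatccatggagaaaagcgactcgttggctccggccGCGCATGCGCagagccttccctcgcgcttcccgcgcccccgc
Atp5g3: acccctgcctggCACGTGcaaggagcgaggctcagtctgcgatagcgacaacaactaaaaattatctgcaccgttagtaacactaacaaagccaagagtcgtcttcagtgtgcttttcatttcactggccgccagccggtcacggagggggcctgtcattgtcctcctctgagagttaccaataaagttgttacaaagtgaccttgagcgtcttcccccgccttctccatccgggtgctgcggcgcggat
Cox7a2l: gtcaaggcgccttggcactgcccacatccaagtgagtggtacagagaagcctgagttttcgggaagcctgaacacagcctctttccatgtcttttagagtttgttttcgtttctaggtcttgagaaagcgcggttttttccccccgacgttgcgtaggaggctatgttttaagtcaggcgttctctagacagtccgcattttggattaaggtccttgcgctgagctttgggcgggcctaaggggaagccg

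The capitals mark an E-box in *Atp5g1* and in *Atp5g3* and, in *Atp5g2*, an NRF1 core that reads on both strands. *Atp5g3* also holds an NRF1 core in the 50 bases after the start, which are not printed, while the *Cox7a2l* stretch held none of the motifs searched. In GENCODE vM21 the stretches of *Cox7a2l* and *Atp5g2* lie inside the gene, downstream of its annotated start. The bases before those annotated starts were not searched. Motifs were searched on both strands in windows of 250 bases before and 50 after the start, which were found for 69 of the 85 members (74 windows). As for *Cox7a2l*, the windows of some members that fell, among them *Ndufab1*, *Cox5a* and *Ndufa12*, held none of the motifs. The NRF1 core GCGCANGCG occurred in 31.1% of member windows, 14% of windows of genes tested and 6.25% of all windows. The ETS core CCGGAAG, the letters bound by GABPA, was in 24.3%, 19.1% and 8.86%. The YY1 core ATGGCGG was in 16.2%, 8.6% and 4.05%. The E-box CACGTG, the letters bound by MYC with MAX, was in 8.11%, 10.3% and 7.15%, and TATAAA in 8.11%, 6.79% and 13.6%. These shares are descriptions of the letters, with no test, and do not show binding.

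The subunits encoded in mitochondrial DNA, the partners of these proteins in complexes I, III, IV and V, had negative differences for all 13 genes, with a median of -0.39. They varied more between the treated libraries than the nuclear-encoded members did, with an SD of the centred mean of 0.313 beside 0.111 for all members. Of the 13 genes 4 passed, so that 30.8% were called lower, beside 25.3% of all genes tested. These were *mt-Nd3*, *mt-Nd6*, *mt-Nd1* and *mt-Nd2*, all of complex I, the last 3 named after their values were seen. *mt-Nd3* was at 12.29, 12.11 and 12.08 in controls and at 10.68, 11.08 and 11.53 in treated libraries (-1.06 ± 0.19, adjusted p = 0.0022). Treated 15 was the highest treated library for 13 of the 13 genes and control 3 the highest control for 11. Without treated 15 all 13 were called lower, and without control 3, treated 14A or treated 14B 2 were.

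The list of coenzyme Q and cytochrome c genes had 9 of 15 lower and 1 higher. Thus 60.0% were called lower, beside 25.3% of all genes tested. The list also holds genes that are neither mobile carriers nor enzymes that make coenzyme Q, among them *Cyc1*, *Hccs* and *Coq10b*. *Coq4*, a coenzyme Q biosynthesis protein, fell by 0.92 (log2 difference -0.92 ± 0.11, adjusted p = 0.00031), and *Coq10b*, a coenzyme Q-binding protein, rose by 0.45 ± 0.09 (adjusted p = 0.0051). *Cycs*, cytochrome c, and *Cyc1*, the cytochrome c1 subunit of complex III that the symbol rule does not take, differed by -0.59 ± 0.08 and -0.60 ± 0.10 (adjusted p = 0.00055 and 0.0018; named after their values were seen). Among proteins that bring in electrons by other routes or exchange metabolites, 5 of 14 fell and none rose. Thus 35.7% were called lower, beside 25.3% of all genes tested. The largest fall was in *Etfb*, of the electron transfer flavoprotein, at -0.57 ± 0.08 (limma adjusted p = 0.00073).

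The tricarboxylic acid cycle and pyruvate dehydrogenase list was split, with 8 of 17 genes lower and 3 higher. Thus 47.1% were called lower, beside 25.3% of all genes tested. *Suclg2*, a subunit of succinate-CoA ligase, fell by 0.82 (log2 difference -0.82 ± 0.06, adjusted p = 1.9e-05). The 3 that rose encode components of the pyruvate dehydrogenase complex, which feeds the cycle with acetyl-CoA: *Dlat* by 0.59 ± 0.07 and, named after their values were seen, *Pdha1* by 0.39 ± 0.07 and *Pdhb* by 0.16 ± 0.05 (adjusted p = 0.00036, 0.0021 and 0.033). Other components of that complex, also named after their values were seen, did not rise: *Dld*, shared with other dehydrogenases, fell by 0.20 (log2 difference -0.20 ± 0.05, adjusted p = 0.013), and *Pdhx* differed by 0.09 ± 0.10 (adjusted p = 0.52). *Dlat* was at 10.08, 10.04 and 10.24 in controls and at 10.74, 10.60 and 10.80 in treated libraries. The count of this list, 11 in either direction, was 7 without treated 14A.

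Assembly factors outside the symbol rule went in both directions, with 10 of 45 lower and 6 higher, so that 22.2% were called lower, beside 25.3% of all genes tested. *Uqcc2*, a complex III assembly factor, had the largest fall, -0.99 ± 0.11 (adjusted p = 0.00026), and *Ttc19*, another factor of complex III, the largest rise, 0.40 ± 0.11 (adjusted p = 0.016). Their count of 16 was 10 without control 2. Of 18 regulators of mitochondrial gene expression 5 fell and 2 rose, so that 27.8% were called lower, near the 25.3% of all genes tested. *Ppargc1b*, a coactivator of mitochondrial biogenesis genes, was at 7.46, 7.39 and 7.29 in controls and at 6.25, 6.61 and 6.16 in treated libraries (-1.04 ± 0.13, adjusted p = 0.00035). *Polrmt*, the mitochondrial RNA polymerase, rose by 0.45 ± 0.08 (adjusted p = 0.0030).

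**Figure D5:**
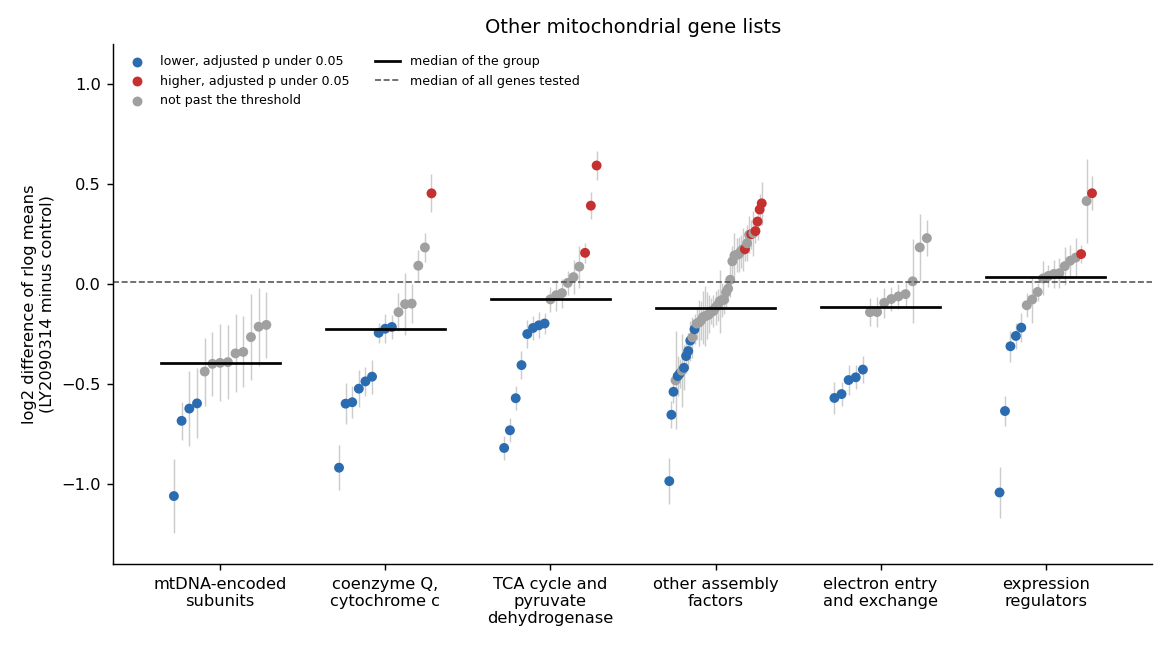
Log2 difference (treated minus control, y axis) for the genes of 6 other mitochondrial lists (x axis), drawn as for the members, with standard errors from limma and black lines at the medians. The mitochondrial DNA-encoded subunits have the lowest median, -0.39, and the 3 red points of the tricarboxylic acid cycle list are *Dlat*, *Pdha1* and *Pdhb*.

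Tested one gene at a time, the smallest p that an exact permutation test (two-sided) of 3 libraries against 3 allows is 0.10, and 50 of the 85 members (58.8%) reached that value, as did 58.6% of all genes tested, so this count does not set the members apart.

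Some of the named members overlap, in the GENCODE vM21 annotation, a gene on the other strand that passed the limit on the mean. These were *Ndufs1* with *Eef1b2* and *Ino80dos*, *Ndufb6* with *Smim27*, *Uqcrb* with *Gm10767*, *Cox4i1* with *Emc8* and *Atp5a1* with *Haus1*. The library kit keeps strand, but whether strand was used in the quantification is not given in the sources used here.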

How the data were processed

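The authors deposited 1 table of rlog values, which are log2 expression levels from DESeq2 (version 1.30.1 per the labels); reads were quantified with Salmon against GRCm38, per the study's methods with GENCODE vM24. Which samples and options entered the transformation is not given in the sources used here. Shrinkage makes differences of low genes smaller. The table has 12 columns, of which 6 were matched by name to ERT2 groups and the other 6, named for Cre, were not used. Symbols were found for 41157 of 41444 gene IDs. The highest Ensembl gene number in the table is 104527, below the 118393 of GENCODE vM21.

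Genes with a mean of at least 3 over the 6 libraries were fitted with limma 3.58.1 (R 4.3.3), in which the prior variance followed the mean level; p-values were adjusted by Benjamini-Hochberg over all 11536 genes, with a threshold of 0.05; the fit was first tested on simulated data. The members and the gene lists were chosen with earlier results of these data known, so no test was made over a list. The named genes were the 2 largest called falls and rises in complexes I, III, IV and V, all of complex II, fixed core subunits and isoforms, called members that are not subunits, and the largest called rise and fall of each other list. Of the genes this rule selects, 1 is not reported here. Shared 31-base words were counted in GENCODE vM21 transcripts. Promoters came from RefSeq. Alternatives were other limits, scalings and thresholds, no trend, leaving out each library, and a correction for transcript length and GC.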

Additional observations from a re-analysis of the deposited data

How the results depend on the processing

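No paired analysis was possible because numbers in the table's column headings differ from the replicate numbers in the labels, so controls and treated libraries share none. If the groups share mice, the spread between mice remained in the standard errors. Of 14 other fits, 38 of the 48 called members were tested in all and 10, with means under 9, in 13. The direction was the same in every fit that tested the member, 30 called members passed in every fit that tested them, 18 were lost in at least 1, and 17 members not called passed in at least 1. Members called lower were 47, and 25 at an adjusted p under 0.01; leaving out 1 library gave 32 to 63, with 1 higher throughout, and no member was higher (0) among the subunits of complexes I to V alone. Without a limit on the mean 33 were lower, and with libraries 14A and 14B averaged as 1 sample 36. Over all genes tested, a limit of 9 on the mean, added after seeing the data, left 1803 lower and 1472 higher, since fewer genes were tested. Quantile normalization called 29.0% lower and 22.2% higher, with 52 members lower, and the correction for length and GC, also added after seeing the data, 49 members. Leaving out 1 library moved the complex medians between -0.35 and -0.23 for I, -0.22 and -0.15 for II, -0.31 and -0.24 for III, -0.19 and -0.07 for IV and -0.37 and -0.25 for V. The calls among mitochondrial DNA-encoded subunits were 2 with no limit on the mean, 2 with 14A and 14B averaged and 2 at an adjusted p under 0.01, and 2 to 13 when leaving out 1 library. Assembly factors outside the rule gave 10 to 17 when leaving out 1 library, 7 with the limit of 9 and 8 at an adjusted p under 0.01. The tricarboxylic acid cycle list gave 7 to 11, then 6 at an adjusted p under 0.01 and 7 with an absolute log2 difference of at least 0.25. Coenzyme Q and cytochrome c gave 4 with the limit of 9, and regulators 3 at an adjusted p under 0.01. The causes were not tested. The rlog values carry no depth, so counting error cannot be given.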
